A study of Mus musculus with 30 samples.

Results

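MCA-969 is a primary tumor cell line derived from a mouse fibrosarcoma induced with the carcinogen methylcholanthrene (MCA). Its 8 tumors, all of those whose title carries the name of the line, were compared with the other 22 of the 30 tumors of the series, which came from the lines MCA-943 (4 tumors), MCA-948 (8 tumors), MCA-970 (6 tumors) and MCA-972 (4 tumors). Each of the 4 other lines had equal weight, so that the reference was the mean of 4 line means. The series addressed what distinguishes tumors that are restrained by NK1.1+ cells from tumors that are not. Bulk RNA was sequenced from single tumors grown in C57BL/6 mice, after cells carrying CD45 had been removed with magnetic beads. The genetic background was C57BL/6 for all 30 tumors. The mouse strain was given as Ncr1Cre R26DTA for MCA-969 and for 3 of the other lines, and as Ncr1Cre for MCA-943, and the labels do not say whether it is the strain of the host or of the mouse in which the line arose. In such mice Cre is driven from the gene of the receptor NKp46, so that natural killer (NK) cells, group 1 innate lymphoid cells (ILC1) and a subset of group 3 cells express diphtheria toxin A where the R26DTA allele is present. Wild-type and NK cell-deficient hosts are both named in the design of the series, but the labels do not say which tumor grew in which host, nor the age of the mice. The 8 tumors are called W-2G, W-R, a-1D, a-2D, a-1G, a-R, W-1D and W-2D after their titles, of which W-R is spelled WR, and the meaning of these letters and codes is not given. The labels class 6 of them as not sensitive to NK cells, and W-1D and W-2D as sensitive. Of the other lines, all tumors of MCA-943 are classed as not sensitive, and all those of MCA-948, MCA-970 and MCA-972 as sensitive. Each line goes back to 1 primary tumor, so a difference between lines is a difference from 1 line, and the p-values measure the spread between tumors of a line.

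Fibrosarcomas are tumors of mesenchymal cells, and their cells normally make fibrillar collagens and the intermediate filament protein vimentin. Keratins 8 and 18 form the paired intermediate filaments of simple epithelia and of mesothelium, and desmosomes, tight junctions and E-cadherin hold epithelial cells together. Hox genes and other homeobox and T-box genes are switched on by position along the body and the limb in the embryo, and fibroblasts of the adult keep much of that pattern.

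Expression is given as CPM, counts per 1000000 counts after scaling of the library sizes by the TMM method, and differences as log2 fold changes of MCA-969 over the reference. Of 48440 genes, 16862 passed a filter on low counts and were tested. A gene was called higher or lower when its adjusted p-value was under 0.05 and its log2 fold change at least 1 in size. The totals were 32514125 to 39971426 counts in the MCA-969 tumors and 27745104 to 46537062 over all 30. Mitochondrial genes took 1.31% to 1.68% of the counts in MCA-969. The library numbers in the column names fell into 3 blocks of neighbouring numbers, which are called runs here. The labels name no run or batch, so whether a block was processed together is not known. Run 1 held 6 MCA-969 tumors with the 4 MCA-972 tumors. Run 2 held W-1D and W-2D with the 6 MCA-970 tumors and 2 MCA-948 tumors, and run 3 held no MCA-969 tumor. Values within run 1 (against MCA-972) and within run 2 (against MCA-970, or against MCA-948 with 2 tumors a side) are given beside the main results, whereas MCA-943 shared no run with MCA-969. W-2D stood apart from its line. It was the lowest of the 8 tumors by at least 1 on the log2 scale in 622 genes, against 63 for the next tumor, W-1D, and the highest in 156. Its mean correlation with the other 7 tumors of the line, on counts variance-stabilized with DESeq2, was 0.975, against 0.984 to 0.990 for the others.

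Against the mean of the 4 other lines, 1653 genes (9.8% of those tested) were called higher in MCA-969 and 903 (5.36%) lower. A further requirement was that a gene be called in the same direction against each of the 4 lines on its own. By that rule 376 genes (2.23%) were higher in MCA-969 than in each line, and 87 (0.516%) were lower. In CPM, all 8 MCA-969 tumors lay above all 22 others in 263 genes (1.56%) and below them in 174 genes (1.03%). These shares over all genes tested are the reference for the counts of list members below. Without W-1D and W-2D, 369 genes were higher and 78 lower than in each line. Within run 1, against MCA-972, 356 of the 363 higher genes that could be tested and 76 of the 77 lower genes were called. Within run 2, against MCA-970, the corresponding numbers were 266 of 329 and 51 of 81, and all had the same sign. With only 2 tumors a side within run 2, against MCA-948, 25 of 321 higher genes and 1 of 70 lower genes were called, and 319 and 70 kept their sign. The 376 and 87 genes had been chosen partly by these comparisons on the same tumors, so these numbers are no independent support. Over all 15878 genes of the run 1 fit, 1600 were called higher and 1540 lower. Against MCA-970 the totals were 1469 and 1308 of 15936, and against MCA-948 81 and 17 of 15132. The median log2 fold change over all genes tested was 0.04. A model of the 5 line means, with 3 residual degrees of freedom, called 0 genes in either direction. In it 448 genes (2.66% of those tested) had an unadjusted p under 0.05 (limma), a share below the 0.05 of the threshold itself.

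**Figure D1:**
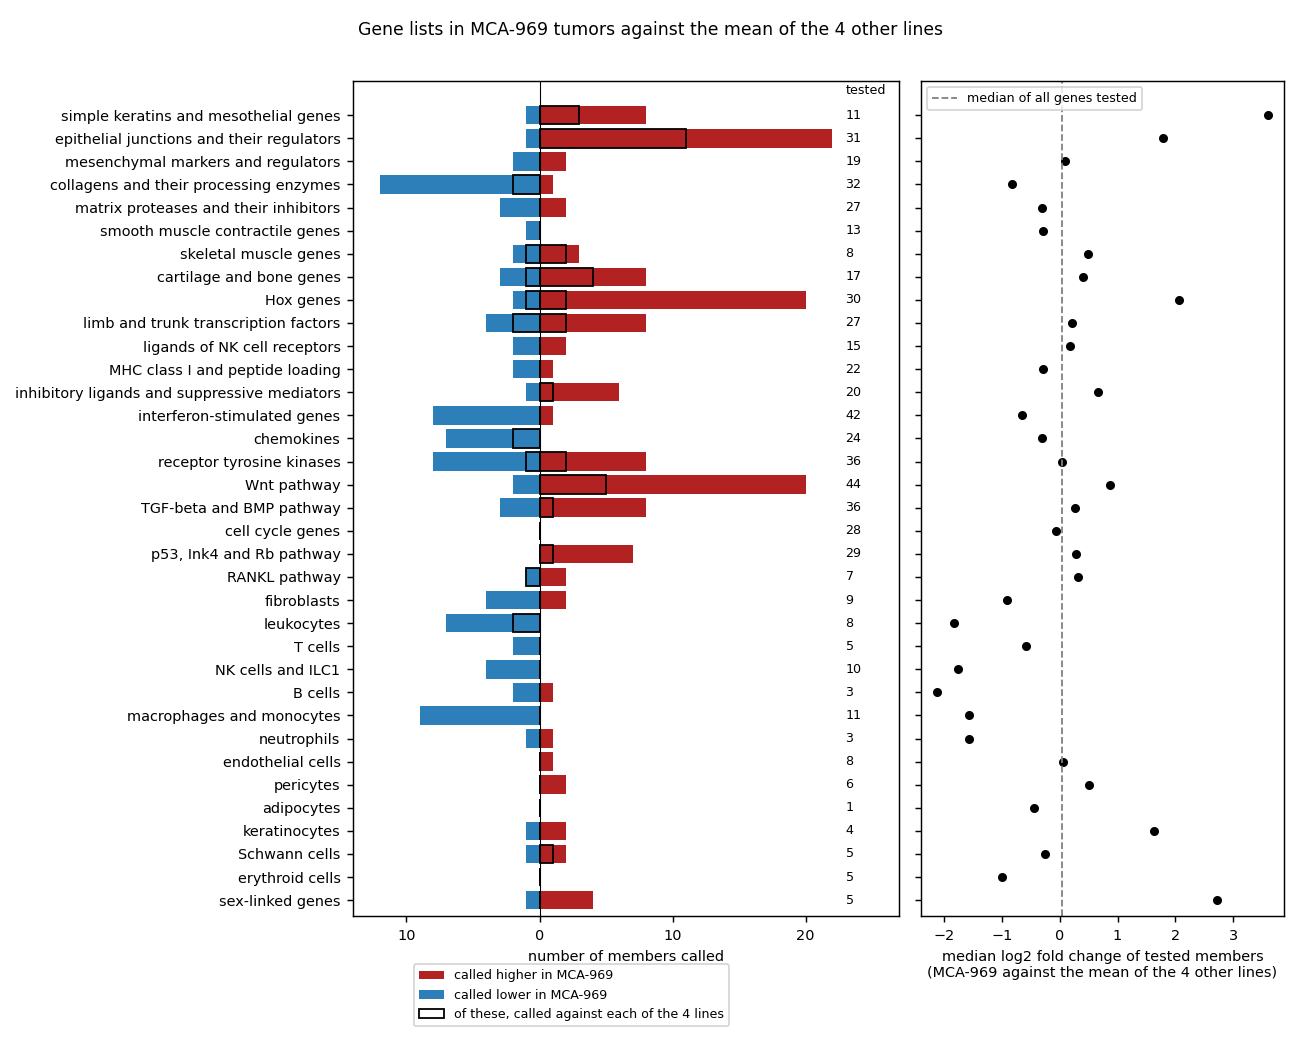
Members of each gene list called higher (red, right of 0) or lower (blue, left of 0) in MCA-969 than in the mean of the 4 other lines, with the number tested at the right of the left panel and, outlined in black, the members called against each of the 4 lines. The right panel gives the median log2 fold change of the tested members of each list, with a dashed line at the median of all genes tested; keratin and mesothelial genes (3.60), Hox genes (2.06) and epithelial junction genes (1.79) lie to the right of it among the expression programs, and collagens (-0.83) to the left.

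Among the genes that were higher than in each line and did not overlap between MCA-969 and the other tumors, the largest differences were in Pitx1, Glt1d1, Wasf3, Mab21l1, Slc5a7, 1700012B09Rik, Krt8, Grp, Xlr, Kera, Svip and Hapln1. Pitx1 encodes a homeodomain factor that specifies the hindlimb. It was present at 0.341 to 9.59 CPM with a median of 5.08 in MCA-969, with its lowest value in W-2D, and had no count in any of the 22 other tumors. Set against the limit of 3 counts per library, its mean in MCA-969 was at least 55.1-fold higher than in MCA-943, at least 60.5-fold higher than in MCA-948 and at least 63-fold higher than in MCA-972. Its call against the mean (adjusted p = 1.8e-07, edgeR) was lost with the library run as a covariate (adjusted p = 1), and it was called within run 1 (adjusted p = 5.6e-07). The predicted genes Gm47071, on the opposite strand, and Gm28760 overlap Pitx1 (chr13:55825051-55836192 in GRCm38, minus strand), and the strand setting of the counting is not given in the sources used here.

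Slc5a7 encodes the choline transporter of cholinergic neurons. It ranged from 4.81 to 30.9 CPM with a median of 19.4 in MCA-969 and from 0 to 0.179 CPM elsewhere. All 8 MCA-948 tumors were at 0, against which the mean of MCA-969 was at least 232-fold higher. As for Pitx1, the call against the mean was lost with the library run as a covariate (adjusted p = 1), while it was called within run 1 (adjusted p = 3.01e-06). The fitted differences of Pitx1 and Slc5a7 under that covariate stayed far above the threshold on size, so these calls were lost on the adjusted p alone. No fitted fold change is given for genes without a count in a line, since it depends on the prior count. Wasf3, a regulator of actin branching, was at 1.73 to 11.9 CPM with a median of 8.24 in MCA-969 and at 0 to 0.0499 CPM in the other tumors. Glt1d1 was at 11.4 to 16.9 CPM with a median of 14.8 against 0 to 0.0982 CPM, and it overlaps Slc15a4 on the opposite strand. Mab21l1, a gene of eye and craniofacial development inside an intron of Nbea on the opposite strand, was at 3.51 to 8.82 CPM with a median of 4.59 against 0 to 0.0611 CPM. The lack of overlap in each of these genes was required by the rule that chose them.

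Matrix and secreted products were among the same genes. Hapln1, the link protein that fastens aggrecan to hyaluronan, was at 3.97 to 25 CPM with a median of 15.2 in MCA-969 and at 0 to 0.538 CPM in the others (log2 fold change 6.71 ± 0.27, standard error; adjusted p = 6.36e-18, edgeR). Kera, which encodes the small proteoglycan keratocan of the cornea, was at 0.309 to 7.85 CPM with a median of 2.56 against 0 to 0.113 CPM. Grp, the precursor of gastrin-releasing peptide, was at 0.334 to 7.77 CPM with a median of 1.97 against 0 to 0.0726 CPM. Svip, an inhibitor of endoplasmic reticulum-associated degradation, was at 2.79 to 7.17 CPM with a median of 4.54 against 0 to 0.122 CPM. The X-linked lymphocyte-regulated gene Xlr was at 3.93 to 17.6 CPM with a median of 6.79 against 0 to 0.218 CPM, but it belongs to a multicopy family whose reads the counting could split. Kera and Grp varied by more than a factor of 10 within MCA-969, and the lack of overlap in these genes was part of the rule that chose them.

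In the opposite direction stood Musk, Bhlhe22, Mme, Dlgap1, Nrep, Pknox2, Foxf1, Osr1, Crlf2, Pmm1, Slc43a3 and Phldb2. Musk encodes the receptor kinase that organizes the neuromuscular junction. Its level was 0 to 0.223 CPM with a median of 0.0748 in MCA-969, whereas the 4 MCA-972 tumors had 14.7, 7.12, 4.74 and 7.21 CPM and the 4 MCA-943 tumors 2.13, 1.88, 3.44 and 1.71 CPM (log2 fold change against the mean -5.56 ± 0.35, adjusted p = 7.11e-14, edgeR). Bhlhe22, a basic helix-loop-helix repressor known from neurons, was at 0.0619 to 1.73 CPM with a median of 0.93 in MCA-969 and at 9.99 to 26.8 CPM in the others. Mme encodes neprilysin (CD10), a surface peptidase of fibroblasts and lymphoid progenitors. It was at 0.588 to 8.95 CPM with a median of 4.44 in MCA-969, at 31.5 to 71 CPM in MCA-948, the nearest line, and at 125 to 162 CPM in MCA-943. The rule required all 12 genes to be lower in each of the 8 tumors than in any other tumor. W-2D was far below the remaining MCA-969 tumors in Bhlhe22, Mme, Nrep and Pknox2.

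Foxf1 and Osr1 are transcription factors of lateral plate and splanchnic mesoderm. Foxf1 was at 2.1 to 7.09 CPM with a median of 4.01 in MCA-969, at 32.1, 28.4, 29 and 31.9 CPM in MCA-943 and at 12.7 to 19 CPM in MCA-948 (log2 fold change -2.85 ± 0.15, adjusted p = 7.25e-16, edgeR). Fendrr, the long noncoding RNA transcribed away from the Foxf1 promoter, was at 0.0524 to 0.403 CPM with a median of 0.232 against 0.856 to 15.3 CPM, with a log2 fold change of -4.55, and it was chosen after its values were seen. The predicted gene Gm20388 overlaps both, on the strand opposite to Fendrr, and Gm27530 overlaps Foxf1 on the opposite strand. Osr1 was at 1.95 to 10.3 CPM with a median of 4.29 against 13.1 to 66.8 CPM. Nrep, a small protein of regenerating neurons and of myofibroblasts, was at 9.38 to 57.7 CPM with a median of 35.6 in MCA-969 and at 511 to 621 CPM in MCA-943, where it was highest. Crlf2, the receptor subunit for thymic stromal lymphopoietin, was at 0.867 to 2.37 CPM with a median of 1.62 against 3.91 to 15.7 CPM. None of these genes overlapped between the groups, which the rule had required of all but Fendrr.

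**Figure D2:**
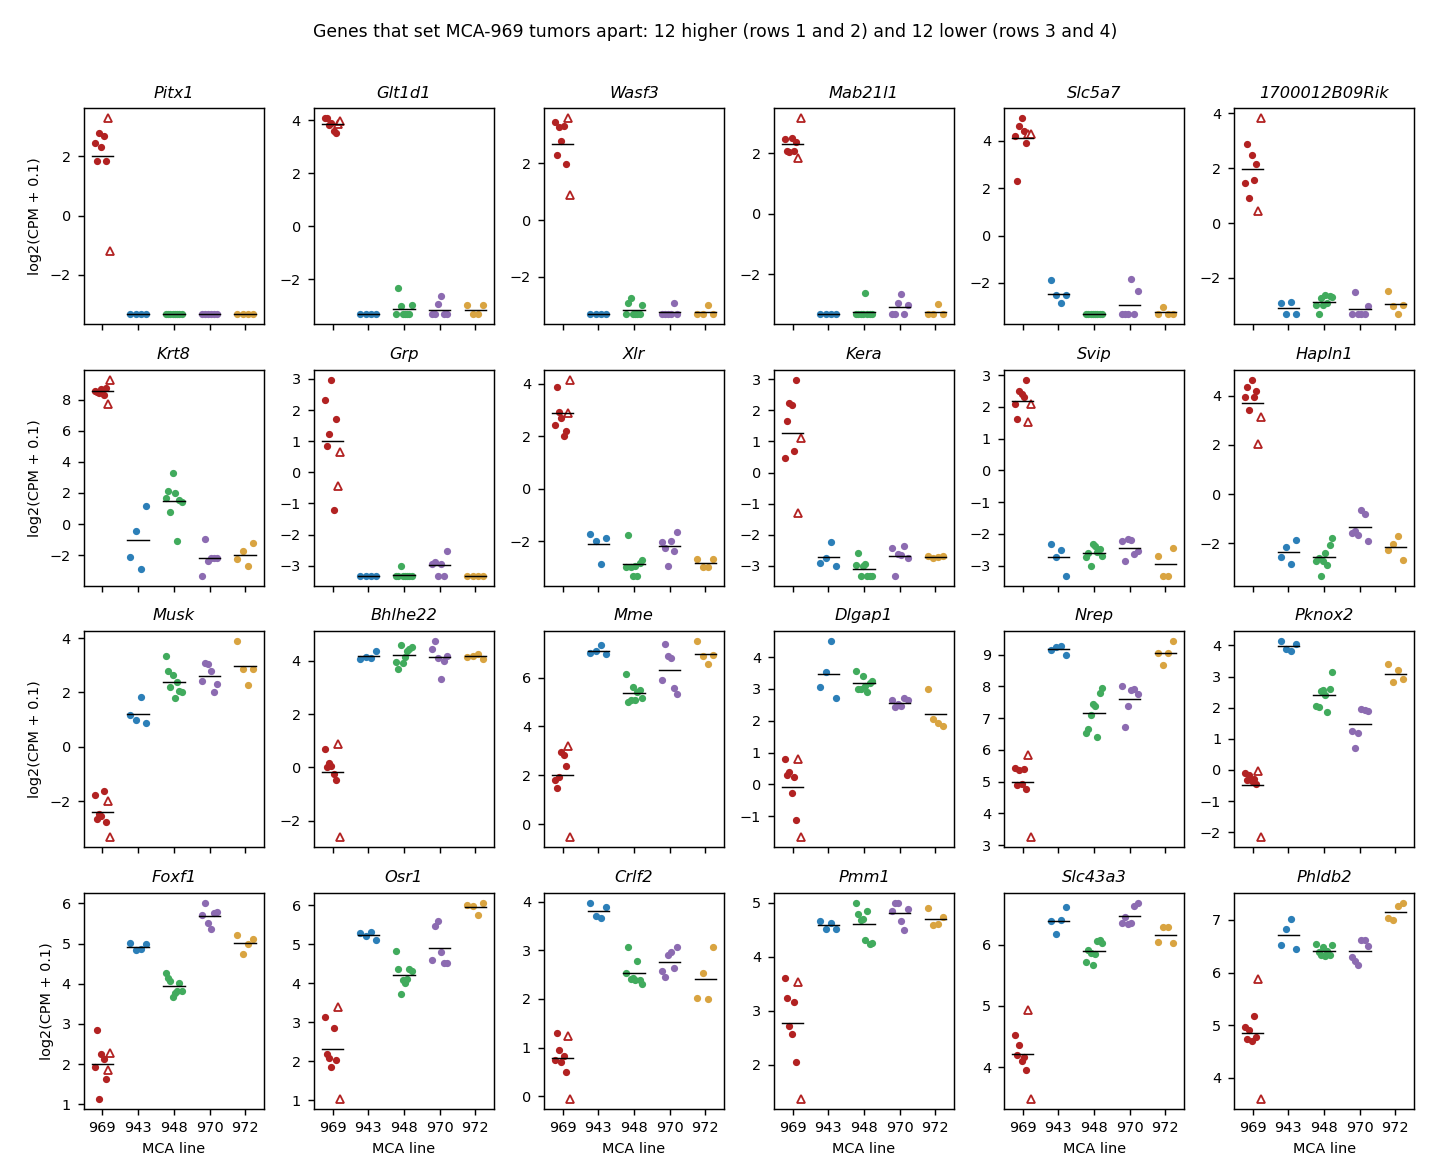
Levels of the 12 higher genes (rows 1 and 2) and 12 lower genes (rows 3 and 4) in each tumor, as log2(CPM + 0.1) on the vertical axis, by line on the horizontal axis; a point is a tumor, a bar the mean of a line, and the open triangles are W-1D and W-2D of MCA-969. Pitx1 has no count outside MCA-969, and in all 24 genes the 8 MCA-969 tumors lie on 1 side of the other 22, as the rule for choosing them required.

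Keratins of simple epithelia were higher in MCA-969 than in the other lines. Krt8 (chr15:101996698-102004482 in GRCm38, minus strand) was at 209 to 625 CPM with a median of 370.5, whereas the highest of the 22 other tumors had 9.49 CPM. Its values were 0.136, 0.641, 0.0378 and 2.13 CPM in the 4 MCA-943 tumors and 0.109, 0.196, 0.0521 and 0.334 CPM in the 4 MCA-972 tumors, and ranged over 0.372 to 9.49 CPM in MCA-948 and 0 to 0.405 CPM in MCA-970. The log2 fold change against the mean was 9.55 ± 0.37 (adjusted p = 4.8e-18, edgeR), and the smallest against a single line was 6.77, against MCA-948. Without W-1D and W-2D it was 9.52, and with the library run as a covariate 9.59. A predicted gene, Gm36026, overlaps Krt8 on the opposite strand.

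Krt18 encodes the partner of keratin 8 and lies 23697 bases from it, at chr15:102028180-102032027 on the plus strand, with no overlapping gene. It was at 135 to 557 CPM with a median of 226 in MCA-969, with the highest value in W-2D (557 CPM) and the lowest in W-1D (135 CPM). The 4 MCA-943 tumors had 2.2, 3.21, 3.1 and 3.62 CPM and the 4 MCA-972 tumors 0.682, 0.807, 0.443 and 0.613 CPM, and MCA-970 ranged over 5.59 to 10.2 CPM. In MCA-948 Krt18 reached 65.5 to 138 CPM, so that the highest MCA-948 tumor lay above the lowest MCA-969 tumor. The difference was called against each line, with a log2 fold change of 5.39 against the mean and 1.47 against MCA-948 (adjusted p = 6.83e-07, edgeR), but within run 2 the comparison with MCA-948 did not pass (log2 fold change 2.04, adjusted p = 0.217).

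Of the 17 keratin and mesothelial genes, 11 passed the filter and 8 were called higher and 1 lower than the mean of the other lines, with a median log2 fold change of 3.60 over those tested, and 3 were higher than each line (Krt8, Krt18 and Krt20). Krt20, a keratin of intestinal and urothelial cells, was at 1.19 to 17.2 CPM with a median of 4.4 in MCA-969 and 0.0339 to 2.82 CPM elsewhere, with overlap (4.04). Msln, which encodes the mesothelial surface protein mesothelin, was at 21.7 to 88.7 CPM with a median of 44.5 in MCA-969, at 28.7, 31, 66.6 and 26.4 CPM in MCA-943 and at 0 to 0.0368 CPM in MCA-970. The difference from MCA-943 did not pass the test (log2 fold change 0.35, adjusted p = 0.438, edgeR), although its log2 fold change against the mean was 5.84. Plet1, a surface protein of epithelial progenitors, was high in MCA-969 and MCA-943 only, at 7.75 to 35.1 CPM with a median of 13.2 and at 141, 103, 118 and 126 CPM. It was thus called higher than the mean and lower than MCA-943 (-2.95). Ezr, which encodes the membrane linker ezrin, had a log2 fold change of 2.70 against the mean. Krt19 had a log2 fold change of 1.40, whose call was lost with the library run (adjusted p = 0.19) and with the leukocyte score (adjusted p = 0.38) as a covariate. Krt7, at 0.0304 to 0.258 CPM with a median of 0.14, was the member called lower (-1.09), a call that the library run as a covariate ended (adjusted p = 0.0885), as did leaving out W-R. Summed over all members, the level was 654 to 1534 CPM in MCA-969, 258 to 327 CPM in MCA-943, 123 to 228 CPM in MCA-948, 26.5 to 35.3 CPM in MCA-970 and 23.4 to 31 CPM in MCA-972, with no overlap.

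**Figure D3:**
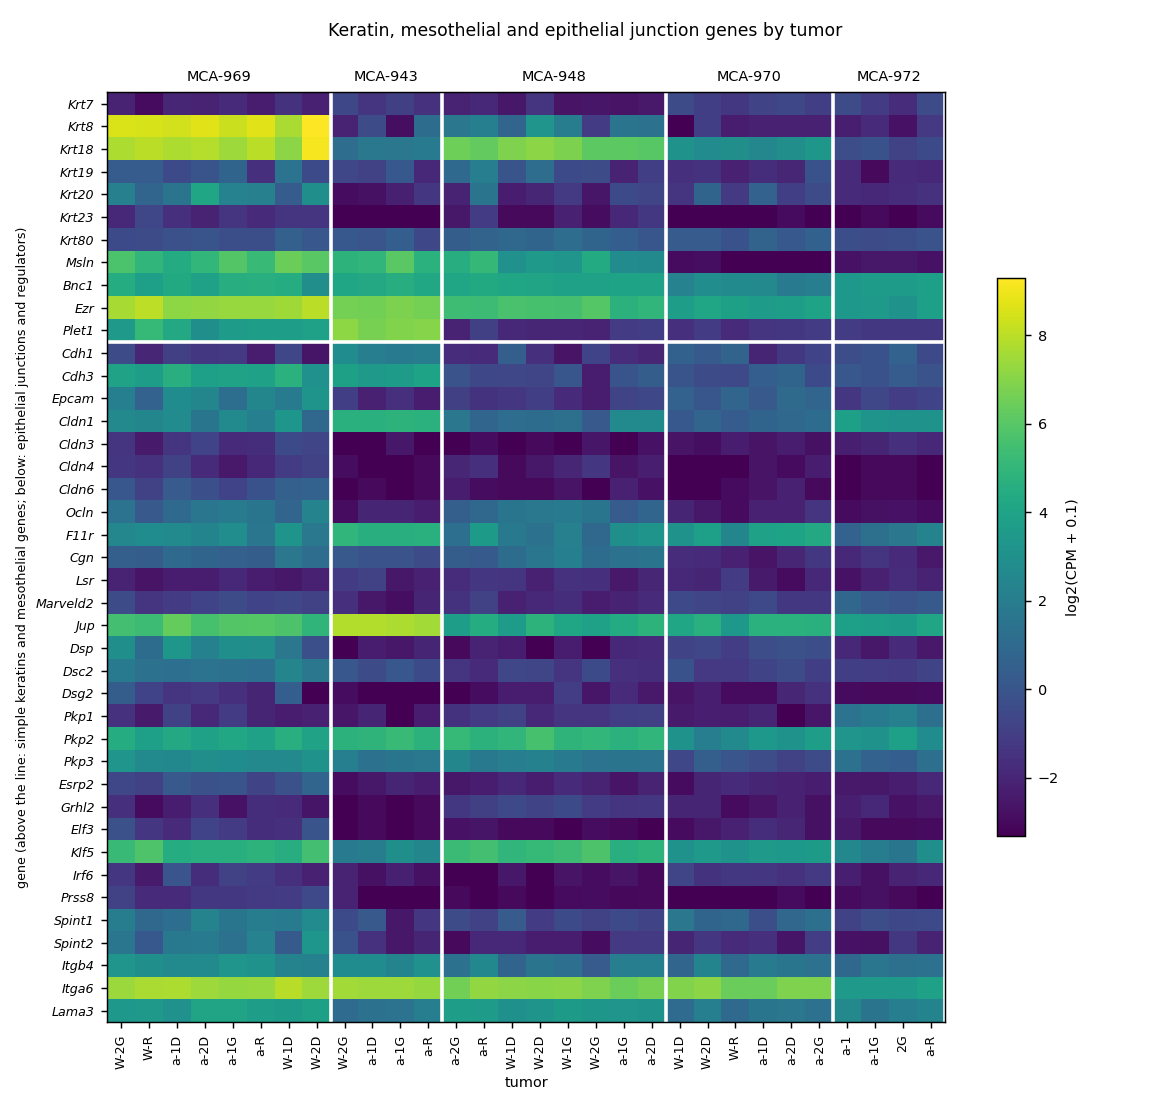
Keratin and mesothelial genes (above the white line) and epithelial junction genes and regulators (below it) that passed the filter, with 1 left out, in each of the 30 tumors grouped by line, with colour giving log2(CPM + 0.1). The rows of Krt8 and Krt18 are bright in all 8 MCA-969 tumors, Msln, Plet1 and Cdh3 are also bright in MCA-943, and the row of Cdh1 is brightest in MCA-943.

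Genes of epithelial junctions and their regulators were mostly higher than the mean of the other lines as well. Of the 44 members, 31 were tested, 22 were called higher (71.0%) and 1 lower (3.23%) than the mean, and 11 were higher than each line, 7 of them with all 8 tumors above all others. Over all genes tested the shares were 9.8% higher and 5.36% lower than the mean. They were 2.23% higher than each line and 1.56% with all 8 tumors above. The median log2 fold change of those tested was 1.79. Summed over all members, however, the level in MCA-969 was like that in MCA-943. It was 406.5 to 546.8 CPM in MCA-969, 479.6 to 555.9 CPM in MCA-943 and 220.5 to 314.9 CPM in MCA-948. MCA-970 had 149.2 to 232.3 CPM and MCA-972 87.27 to 94.52 CPM. Epcam, the epithelial cell adhesion molecule, was at 1.46 to 9.25 CPM with a median of 4.83 in MCA-969. It was at 0.407, 0.123, 0.227 and 0.098 CPM in MCA-943, 0.3, 0.538, 0.391 and 0.473 CPM in MCA-972, 0.101 to 0.558 CPM in MCA-948 and 0.92 to 1.93 CPM in MCA-970, where 3 tumors lay above the lowest MCA-969 tumor, W-R (log2 fold change 3.39 ± 0.24, adjusted p = 1.31e-12, edgeR). Dsp, the desmosomal plaque protein desmoplakin, was at 0.743 to 10.1 CPM with a median of 6.06 against 0 to 0.776 CPM, with W-2D below the highest MCA-970 tumor and no other overlap. Spint2, an inhibitor of the membrane serine proteases matriptase and prostasin, was at 1 to 9.81 CPM with a median of 3.17 against 0.0261 to 0.813 CPM with no overlap. Prss8, which encodes prostasin, was at 0.183 to 0.588 CPM with a median of 0.322 against 0 to 0.136 CPM, and Kat8 overlaps it on the opposite strand. Cldn6, a claudin of embryonic epithelia, was at 0.457 to 1.46 CPM with a median of 0.879 against 0 to 0.124 CPM.

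The regulators Elf3, an epithelial ETS factor, and Esrp2, a splicing regulator of epithelial cells, were at 0.183 to 0.867 CPM with a median of 0.333 and at 0.457 to 1.61 CPM with a median of 0.778, with log2 fold changes of 3.42 and 2.90 against the mean. Grhl2, the grainyhead factor that drives many epithelial genes, was at 0.0304 to 0.237 CPM with a median of 0.143 in MCA-969 and at 0.281 to 0.611 CPM in MCA-948, where it was highest, and was not called against the mean (adjusted p = 0.106, edgeR). Cdh3 (P-cadherin) was at 8.33 to 26.1 CPM with a median of 15.1 in MCA-969 and 14.3, 11.1, 12.2 and 16 CPM in MCA-943, a difference that did not pass (adjusted p = 0.397), and at most 1.58 CPM in the other 3 lines. Cdh1, which encodes E-cadherin, was the member called lower. It was at 0.0619 to 0.635 CPM with a median of 0.321 in MCA-969, at 6.81, 4.07, 3.48 and 3.94 CPM in MCA-943 and at 0.0611 to 1.3 CPM in MCA-948, with a log2 fold change of -1.70 against the mean. This call was lost with the library run (-1.28, adjusted p = 0.196) and with the leukocyte score (-0.76, adjusted p = 0.184) as a covariate. Within run 1, 21 of 27 junction genes were called higher and 3 lower than in MCA-972, and within run 2 19 of 27 and 0 than in MCA-970 and 1 of 25 than in MCA-948.

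Promoters of genes of these 2 lists that were higher than in each line are shown because many epithelial promoters carry E-boxes, the letters CAGGTG on either strand (CACCTG on the other), to which the SNAIL and ZEB repressors can bind. RefSeq promoter windows of GRCm38.p6, from 250 bases before to 50 after the start, were found for 9 of the 14 genes. The E-box was counted only in the 250 bases before the start. It was held there by 7 of these 9 genes (77.8%), namely Krt8, Krt18, Epcam, Spint2, Cldn4, Cldn6 and Elf3. The share was 17.1% over all 27025 promoters, and 1749 of the 11695 found for the genes tested held the E-box. The only E-box of Krt8 and of Cldn6 lies inside the gene model, so 5 of the 9 held one before it. Over the 249 promoters found for the 376 higher genes the share was 28.1%, and over the 57 found for the 87 lower genes 15.8%. These shares are descriptions of letters in a window and carry no test. The bases before the annotated gene model are given 5′ to 3′ on the strand of the gene, with the E-boxes in capitals, for Krt18 (chr15:102027966-102028179, plus strand, 1 E-box), Epcam (chr17:87635729-87635978, plus strand, 2 E-boxes) and Spint2 (chr7:29281978-29282227, minus strand, 3 E-boxes).
Krt18: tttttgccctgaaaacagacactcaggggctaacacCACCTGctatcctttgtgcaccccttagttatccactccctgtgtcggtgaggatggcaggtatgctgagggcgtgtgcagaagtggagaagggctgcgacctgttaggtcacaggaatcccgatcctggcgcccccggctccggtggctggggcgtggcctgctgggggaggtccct
Epcam: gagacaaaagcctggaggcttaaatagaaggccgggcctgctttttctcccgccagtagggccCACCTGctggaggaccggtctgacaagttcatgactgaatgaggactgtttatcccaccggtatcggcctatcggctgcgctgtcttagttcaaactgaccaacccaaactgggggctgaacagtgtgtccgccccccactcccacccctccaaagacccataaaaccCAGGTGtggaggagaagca
Spint2: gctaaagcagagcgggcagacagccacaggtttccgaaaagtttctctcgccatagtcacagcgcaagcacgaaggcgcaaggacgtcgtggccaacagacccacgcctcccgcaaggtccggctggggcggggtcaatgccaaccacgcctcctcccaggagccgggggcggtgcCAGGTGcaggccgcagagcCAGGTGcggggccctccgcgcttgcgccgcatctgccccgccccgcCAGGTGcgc
Transcripts of the repressors themselves were not called. Zeb1 was at 118 to 186 CPM with a median of 144 in MCA-969 and 92.3 to 247 CPM in the others, and Snai2 at 14.7 to 27.2 CPM with a median of 18.9 and 14.8 to 55 CPM, with log2 fold changes of -0.16 and -0.49 against the mean, neither past the threshold on size. With the library run as a covariate Snai2 was at -0.81 (adjusted p = 0.00016, edgeR) and Zeb1 at -0.19 (adjusted p = 0.129). Without W-1D and W-2D, Snai2 was at -0.38 (adjusted p = 0.00311). The small difference in Snai2 was thus kept out of the calls by its size.

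Most mesenchymal genes gave no call. Vim was at 4337 to 5261 CPM with a median of 4764 in MCA-969 and 2819 to 8076 CPM in the others (log2 fold change -0.07, adjusted p = 0.414, edgeR). Of the 19 mesenchymal markers and regulators, all tested, 2 were called higher and 2 lower (10.5% each), with a median log2 fold change of 0.09. Over all genes tested the shares were 9.8% and 5.36%. Twist2, a basic helix-loop-helix factor of dermal mesenchyme, was at 80.5 to 206 CPM with a median of 122 against 36.1 to 81.5 CPM (1.29 on the log2 scale), with W-1D below the highest MCA-970 tumor. Thy1, a glycoprotein of fibroblasts, was called higher than the mean through MCA-948, where it was at 12.7 to 56.9 CPM against 437 to 729 CPM in MCA-969, while the differences from MCA-943 (adjusted p = 0.867) and MCA-970 (adjusted p = 0.12) did not pass. Pdgfrb, the receptor for PDGF-BB on fibroblasts and pericytes, was at 55.4 to 189.9 CPM with a median of 120.5 against 146 to 592 CPM (-1.64), and Fap, the fibroblast activation protein, at 8.21 to 16 CPM with a median of 12.3 against 9.16 to 72.6 CPM (-1.39).

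More collagen genes were called lower than higher. All 32 collagens and processing enzymes were tested, 12 were called lower and 1 higher than the mean, and the median log2 fold change was -0.83. Col5a1, a chain of the fibril-nucleating collagen V, was at 212 to 744 CPM with a median of 579 in MCA-969, at 3020, 3280, 3466 and 2725 CPM in MCA-943, at 2548, 2245, 2603 and 2754 CPM in MCA-972, and at 1134 to 2074 and 1335 to 2333 CPM in MCA-948 and MCA-970. The groups did not overlap, and Col5a1 was lower than in each line (log2 fold change -1.97 ± 0.15, adjusted p = 4.85e-12, edgeR). Loxl2, an enzyme that crosslinks collagens, was at 58 to 373 CPM with a median of 191 against 345 to 1013 CPM and was also lower than in each line (-1.65), with W-1D above the lowest MCA-948 tumor. Both overlap predicted genes on the opposite strand. Col3a1 was at 1484 to 3956 CPM with a median of 3759 in MCA-969, against 3994 to 5817 CPM in MCA-948 and 18690 to 21190 CPM in MCA-943 (-1.63 against the mean, -0.50 against MCA-948). Col1a1, a chain of collagen I, was at 778 to 3570 CPM with a median of 2691, and its call (-1.10) fell under the threshold on size without W-2D (-0.96). Col8a2, a collagen of the corneal endothelium, was the member called higher (1.59), a call lost with the library run as a covariate (adjusted p = 0.664), and 2 members were called higher without W-1D, without W-2D or without any 1 of 7 other tumors. Summed over the list, W-2D had 8811 CPM and the other 7 tumors 17300 to 22400 CPM, while MCA-948 tumors had 14040 to 23310 CPM. Within run 1, 19 members were lower and 3 higher than in MCA-972, within run 2 17 were lower than in MCA-970, and 0 were called against MCA-948, where the median was 0.21.

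Matrix proteases showed no common direction, with 2 of 27 tested members called higher (7.4%) and 3 lower (11.1%) (of 30) and a median of -0.31. The shares over all genes tested were 9.8% and 5.36%. Mmp3 (stromelysin-1) was at 269 to 1538 CPM with a median of 389.7 in MCA-969 and 14.3 to 78.5 CPM in MCA-948 (1.93 against the mean), and its difference from MCA-970 did not pass (adjusted p = 0.555). The aggrecanase Adamts5 was at 1.7 to 8.28 CPM with a median of 5.51 (-1.98), like MCA-948 at 4.21 to 8.73 CPM and below MCA-943 at 45.9, 57, 65 and 50.7 CPM and MCA-972 at 54.9, 49.2, 43.2 and 87.7 CPM. Adamts12 had a log2 fold change of -1.86. The call of Mmp23 (1.01) lay at the threshold on size and was lost with the library run (0.85, adjusted p = 0.00067) and with the leukocyte score (0.88) as a covariate, and 1 protease was left as higher without a-1G, 1 MCA-948 tumor or either of 2 MCA-972 tumors.

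Cartilage and bone genes split. Of 22 members 17 were tested, 8 were called higher and 3 lower, and 4 were higher and 1 lower than each line. Beside Hapln1, Dmp1, a phosphoprotein of osteocytes, was at 1.65 to 30.5 CPM with a median of 21.6 against 0 to 2.39 CPM (4.85), with W-1D at 1.65 CPM. Sp7 (osterix), a factor of osteoblasts, was at 0.124 to 3.1 CPM with a median of 0.537 against 0 to 0.508 CPM (4.29) and lost its call with the library run as a covariate (adjusted p = 0.0512), as did Comp, the cartilage oligomeric matrix protein, at 0.18 to 4.17 CPM with a median of 2.67. Sox5, a factor of chondrocytes, had a log2 fold change of 1.68. Postn encodes periostin, an adhesive protein of bone lining and of stroma. It was at 179 to 963 CPM with a median of 831 in MCA-969 and 476 to 1636 CPM in MCA-948, but at 3463 to 12410 CPM in MCA-970, 10510, 11900, 13040 and 10360 CPM in MCA-943 and 13550, 10910, 12440 and 22010 CPM in MCA-972 (-3.03 against the mean; adjusted p = 0.152 against MCA-948). Matn2, a matrilin, was at 56 to 126 CPM with a median of 111 (-1.36). Ibsp, the bone sialoprotein, was near 0 in MCA-969 at 0 to 0.152 CPM with a median of 0.041 against 0.0735 to 2.09 CPM (-2.83).

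Of 18 skeletal muscle genes 8 were tested, with 3 called higher and 2 lower. Cdh15 (M-cadherin of myoblasts) was at 0.593 to 2.94 CPM with a median of 1.46 against 0 to 0.355 CPM and Tnnt1, the slow troponin T, at 1.75 to 6 CPM with a median of 2.47 against 0.0521 to 0.949 CPM, both without overlap and higher than in each line (3.90 and 3.23). Acta1, skeletal actin, was at 2.06 to 12.5 CPM with a median of 2.87 (1.56), with W-2D as the highest tumor. Tnnt2, cardiac troponin T, was called lower (-1.88), at 0.402 to 1.24 CPM with a median of 0.707 against 59.9, 43.1, 36.6 and 54.4 CPM in MCA-943, 1.91 to 5.48 CPM in MCA-948 and 0.203 to 0.994 CPM in MCA-970. In the smooth muscle list 0 of 13 tested members (of 14) were called higher and 1 lower, Actg2, enteric smooth muscle actin, at 0.341 to 2.53 CPM with a median of 1.29 in MCA-969 against 129, 107, 119 and 115 CPM in MCA-943 and 20.6, 38.2, 48.3 and 34 CPM in MCA-972 (-2.27 against the mean).

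Hox genes differed in clusters. Of the 39 genes 30 were tested, 20 were called higher and 2 lower than the mean, with a median log2 fold change of 2.06. Only 2 were higher than each line (Hoxa2 and Hoxd4) and 1 lower (Hoxc9), and others were at like levels in MCA-970 or MCA-948. Summed over the list, MCA-969 had 189 to 320.6 CPM, MCA-943 268.5 to 291.8 CPM and MCA-948 286.4 to 357.9 CPM. The sums were 384 to 428.5 CPM in MCA-970 and 146.5 to 162.6 CPM in MCA-972. Hoxa9 was at 11.2 to 22.8 CPM with a median of 15.1 in MCA-969 and 13.9 to 19.8 CPM with a median of 16 in MCA-970, a difference that did not pass (log2 fold change -0.01, adjusted p = 0.96, edgeR), and at most 0.173 CPM in the other 3 lines. Hoxa10 was at 9.37 to 15.6 CPM with a median of 13.4 against 23.5 to 32.4 CPM in MCA-970, which was higher (-1.12), and at or near 0 in the remaining lines. Hoxa11 was at 0.55 to 2.92 CPM with a median of 1.32 and at 0.987 to 1.86 CPM in MCA-970 and had no count in MCA-943, MCA-948 and MCA-972, against which the mean of MCA-969 was at least 16.5-fold, 18.1-fold and 18.9-fold higher. Its call against the mean was lost with the library run as a covariate (adjusted p = 1), and Hoxa11os overlaps it on the opposite strand. At these bounds Hoxa11 still lies above the median of the list.

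In the Hoxb cluster, Hoxb7 was at 14.3 to 19.4 CPM with a median of 16.4 in MCA-969, 12.7 to 18.9 CPM in MCA-948 and 11.2 to 13.8 CPM in MCA-970, and at 0.102, 0.173, 0.151 and 0.392 CPM in MCA-943 and 0.0546, 0.122, 0.235 and 0.306 CPM in MCA-972. The difference between MCA-969 and MCA-948 did not pass (adjusted p = 0.75, edgeR). Hoxb9 was at 1.7 to 34 CPM with a median of 15.3 in MCA-969, between MCA-970 at 52.7 to 61.2 CPM and MCA-948 at 1.18 to 4.49 CPM, with W-2D lowest. In the Hoxc cluster, Hoxc8 and Hoxc9 were called lower. Hoxc9 was at 2.79 to 17.1 CPM with a median of 6.6 against 18.8 to 56 CPM without overlap (-2.09), Hoxc8 at 4.02 to 11.8 CPM with a median of 8.83 against 11.8 to 70.5 CPM (-2.02), and both overlap Hoxc5, on the same strand in the annotation. Hoxd4 was at 1.15 to 2.86 CPM with a median of 2.02 against 0.147 to 0.95 CPM without overlap (2.01). Within run 1 19 of 29 Hox genes were higher than in MCA-972, and within run 2 4 of 29 were higher than in MCA-970 and 3 lower.

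**Figure D4:**
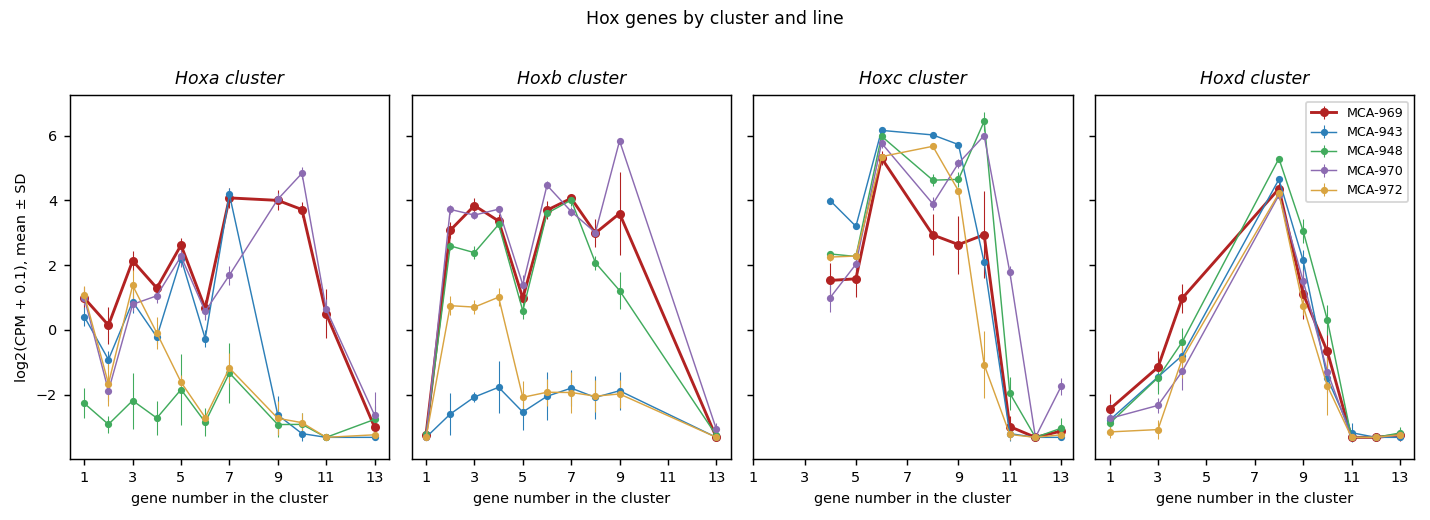
Hox genes along the 4 clusters, with the gene number on the horizontal axis and the mean log2(CPM + 0.1) of each line with its SD over tumors on the vertical axis; MCA-969 is the thick red line. It runs with MCA-970 at Hoxa9 to Hoxa11, where MCA-943, MCA-948 and MCA-972 are near the floor, and lies lowest at Hoxc9.

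Other positional transcription factors of limb and trunk gave 8 members called higher and 4 lower among 27 tested of 31, with a median of 0.21. With the library run as a covariate, 4 were called higher and 5 lower. Pitx1 and Tbx2 were higher, and Msx1 and Foxf1 lower, than in each line. Tbx2, a repressor of the limb margin, was at 0.433 to 7.27 CPM with a median of 3.49 against 0.0499 to 2.93 CPM (2.07), with overlap, and its call was lost with the library run as a covariate (adjusted p = 0.142). Msx1, a homeobox gene of limb mesenchyme, was at 0.12 to 1.61 CPM with a median of 0.517 against 0.782 to 12.6 CPM (-2.79). Dlx2 was at 2.48 to 13.9 CPM with a median of 7.81 in MCA-969 and 6.58, 6.93, 8.5 and 7.67 CPM in MCA-943 (adjusted p = 0.756), and at most 0.0278 CPM in MCA-972. Eya1, a cofactor of sine oculis homeoproteins, was at 0 to 0.446 CPM with a median of 0.109 in MCA-969, near MCA-943 at 0.102, 0.074, 0.0756 and 0.0245 CPM and below MCA-948 at 1.49 to 3.52 CPM, MCA-970 at 2.76 to 4.84 CPM and MCA-972 at 4.91, 7.43, 6.72 and 6.68 CPM (-2.96 against the mean). The call of Foxf2 (-1.06) was lost without W-2D, with the library run and with the leukocyte score as a covariate.

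The receptor tyrosine kinases had 8 members called higher and 8 lower of 36 tested (40 in the list), with a median of 0.04. Kit, the receptor for stem cell factor, was at 36.9 to 143 CPM with a median of 79.2 in MCA-969. It was at 1.02, 0.913, 1.06 and 2.13 CPM in MCA-943, 5.41, 5.84, 6.07 and 6.93 CPM in MCA-972, 0.642 to 8.02 CPM in MCA-948 and 3.36 to 12.6 CPM in MCA-970. No other tumor reached the lowest MCA-969 tumor, and the log2 fold change was 4.39 ± 0.31 (adjusted p = 1.42e-12, edgeR), with 3.55 within run 1 and 3.71 and 4.61 within run 2 against MCA-970 and MCA-948. Ntrk3, a neurotrophin receptor, was at 0 to 1.23 CPM with a median of 0.377 against 0 to 0.148 CPM, with overlap, and was called higher than in each line (4.42). Ntrk2 was at 6.19 to 24.4 CPM with a median of 14 (2.82). Among the members called lower were Musk, Pdgfrb, the Wnt receptor Ror1 at 0.402 to 2.89 CPM with a median of 1.82 (-1.88) and the ephrin receptor Epha4 at 0.072 to 0.975 CPM with a median of 0.288, the latter through MCA-970 and MCA-972 (-1.79).

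Wnt ligands bind Frizzled receptors with Lrp5 or Lrp6 and stabilize beta-catenin, and Wif1, the Sfrp proteins and Nkd1 restrain the signal. Of the 50 Wnt genes 44 were tested, 20 were called higher and 2 lower than the mean, with a median of 0.87. The 5 members that were higher than each line were the ligands Wnt10a and Wnt16 and the inhibitors Wif1, Nkd1 and Sfrp4. Wnt10a was at 11.2 to 37.1 CPM with a median of 22.2 in MCA-969, at 2.54, 2.49, 2.8 and 3.35 CPM in MCA-943, at 0.109, 0.0244, 0.0521 and 0.0557 CPM in MCA-972 and at 0.991 to 2.4 and 3.35 to 6.88 CPM in MCA-948 and MCA-970, with no overlap (log2 fold change 4.47 ± 0.19, adjusted p = 1.21e-17, edgeR). Wnt16 was at 0.712 to 2.73 CPM with a median of 1.24 against 0 to 0.248 CPM without overlap (4.75). Nkd1, which binds Dishevelled and is itself induced by the pathway, was at 1.64 to 13.1 CPM with a median of 7.51 against 0 to 2.36 CPM (4.29), with W-2D inside the range of MCA-970. Wif1, a secreted antagonist, was at 0.0929 to 0.944 CPM with a median of 0.417 against 0 to 0.182 CPM (4.32), and Sfrp4 at 5.04 to 14.3 CPM with a median of 6.39 against 0.397 to 7.69 CPM (2.15). Axin2, a widely used target of beta-catenin, was at 3.9 to 20.9 CPM with a median of 9.59 in MCA-969 but higher in MCA-970 at 13.1 to 24.1 CPM. Its call against the mean (1.17) was lost with the library run (adjusted p = 0.0863) and, on size, with the leukocyte score (0.93) as a covariate. Rspo2, a secreted enhancer of the pathway, was lower (-1.90) at 0.279 to 0.877 CPM with a median of 0.538, against 6.3, 7.06, 5.82 and 11.7 CPM in MCA-943 and 6.83, 5.04, 6.91 and 6.57 CPM in MCA-972.

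In the TGF-beta and BMP pathway 8 of 36 tested members (of 37) were called higher and 3 lower, with a median of 0.26. Bmp7, a ligand of kidney and limb development, was higher than in each line. It was at 2.63 to 29.6 CPM with a median of 12.2 in MCA-969, at 0.169, 0.271, 0.491 and 0.147 CPM in MCA-943, 1.53, 0.122, 0.235 and 0.195 CPM in MCA-972, 0.0499 to 0.589 CPM in MCA-948 and 1.02 to 4.37 CPM in MCA-970, where 3 tumors lay above the lowest MCA-969 tumor, W-2D (log2 fold change 4.76 ± 0.38, adjusted p = 2.28e-11, edgeR). Chrdl1, a BMP antagonist, was at 21.1 to 66.2 CPM with a median of 38.2 in MCA-969 and 32.2, 21.4, 29.6 and 28.4 CPM in MCA-972 (adjusted p = 0.273), and lower in the other 3 lines (3.17 against the mean). Gdf10 was at 0.619 to 12 CPM with a median of 2.59, like MCA-970 at 2.27 to 9.32 CPM. Acvrl1, the endothelial receptor ALK1, was at 1.89 to 8.78 CPM with a median of 5.85 against 105, 105, 118 and 96.8 CPM in MCA-943, and no call was made against another line. The calls of Bmp6 and Gdf6 were lost with the library run as a covariate, where Bmp6 had a log2 fold change of 0.61 (adjusted p = 0.305) and Gdf6 one of -1.82 (adjusted p = 0.0622), and that of the antagonist Nog without W-2D.

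None of the 28 cell cycle genes was called in either direction by edgeR (median -0.07, with 3 higher and 8 lower at an unadjusted p under 0.05 and any size), by DESeq2 (0 calls) or by limma-voom (0 calls). Mki67, a marker of cycling cells, was at 148 to 283 CPM with a median of 243 in MCA-969, between MCA-948 at 362 to 471 CPM and MCA-970 at 97 to 143 CPM. All 29 genes of the p53, Ink4 and Rb list were tested, and 7 were called higher and 0 lower. Trp53 itself was at 117 to 179 CPM with a median of 141 in MCA-969 and 115, 109, 109 and 116 CPM in MCA-943, 103, 93.8, 89 and 88.7 CPM in MCA-972, 21.1 to 29.6 CPM in MCA-970 and 0.71 to 4.32 CPM in MCA-948. It was called higher than the mean (2.38), MCA-948 and MCA-970, and the differences from MCA-943 and MCA-972 did not pass (adjusted p = 0.279 and 0.0655, edgeR). Perp, a desmosomal protein and p53 target, was at 0.578 to 4.07 CPM with a median of 1.68 against 0 to 0.437 CPM without overlap and higher than in each line (5.23). The p53 target Cdkn1a (p21) was not called (0.77). Cdkn2a and Cdkn2b, the neighbouring genes of p16, p19 and p15, were at 431 to 622 CPM with a median of 508 and at 44.8 to 82.3 CPM with a median of 61.4, whereas MCA-943 had means of 18 and 2.16 CPM. Both were called against MCA-943 and no other line, and their calls against the mean (1.20 and 1.21) fell under the threshold on size with the library run as a covariate (0.91, adjusted p = 0.00984, and 0.97, adjusted p = 0.000708). Ccnd2 (cyclin D2) was at 163 to 372 CPM with a median of 286 against 59.7 to 196 CPM (1.27).

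Tnfsf11 encodes the cytokine RANKL and Tnfrsf11a its receptor RANK. Of the 7 genes of this list, all tested, 2 were called higher and 1 lower than the mean. Tnfsf11 was at 5.21 to 75.8 CPM with a median of 9.66 in MCA-969, with 75.8 CPM in W-R, and at 19.6, 13.5, 13.4 and 14.7 CPM in MCA-943, 4.64, 3.08, 6.1 and 3.54 CPM in MCA-972, 0.36 to 1.28 CPM in MCA-948 and 0.519 to 1.99 CPM in MCA-970. It was called higher than the mean (2.60 ± 0.34, adjusted p = 1.96e-07, edgeR) and its difference from MCA-943 did not pass (adjusted p = 0.754). Tnfrsf11a was at 1.61 to 3.64 CPM with a median of 2.75 against 5.25 to 10.8 CPM, lower than in each line with no overlap (-1.55, adjusted p = 1.36e-11). Rasa4, a Ras GTPase-activating protein, was at 6.56 to 23.2 CPM with a median of 17.9 in MCA-969 and 25.2, 24.9, 22.1 and 20.1 CPM in MCA-943 (1.17 against the mean), a call lost on size with the library run as a covariate (0.83).

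Leukocyte transcripts left after the removal of cells carrying CD45 were mostly lower in MCA-969. Fewer cells of a type and less RNA per cell cannot be told apart in bulk RNA. Of the 8 leukocyte markers 7 were called lower than the mean and 0 higher, with a median of -1.83, and Ptprc and Coro1a were lower than in each line. Ptprc, the gene of CD45, was at 0.402 to 2.54 CPM with a median of 0.58 in MCA-969 and at 25.1, 18.7, 3.14 and 2.94 CPM in MCA-943, 1.75, 5.28, 8.42 and 2 CPM in MCA-972, 0.72 to 9.19 CPM in MCA-948 and 0.508 to 23 CPM in MCA-970, with overlap (-2.51, adjusted p = 0.00148, edgeR). The call was lost with the library run as a covariate (adjusted p = 0.1). It was also lost with the leukocyte score (adjusted p = 0.869), of which Ptprc is itself a part. The eighth marker, Arhgdib, was not called (-0.12) and at 188 to 302 CPM made up most of the summed level, which was 208 to 308 CPM in MCA-969, 328 to 448 CPM in MCA-943 and 229.9 to 306, 222 to 323 and 264 to 306 CPM in MCA-948, MCA-970 and MCA-972. Of the 11 macrophage and monocyte markers 9 were called lower, with summed levels of 25.1 to 83.6 CPM in MCA-969 and 34.6 to 158, 36.3 to 176, 32.5 to 397 and 42.7 to 103 CPM in MCA-943, MCA-948, MCA-970 and MCA-972. Without W-1D and W-2D 2 of these were called, and Csf1r, Tyrobp and C1qb lost their calls. Of the 10 NK cell and ILC1 markers 4 were called lower, a number that fell to 0 without the MCA-972 tumor 2G or with the library run as a covariate, to 1 without a-1D, a-1G or a-R, and to 2 without W-2G, a-2D or any 1 of 3 tumors of other lines. Ncr1, the gene of NKp46, was at 0 to 0.18 CPM in MCA-969 and had no count in MCA-972. The T cell list had 2 of 5 tested members lower and the B cell list 1 higher and 2 lower of 3, and the neutrophil list 1 higher and 1 lower of 3. Without W-2D no B cell marker was higher, and the number of neutrophil markers called lower was 0 without W-2G, a-2D, a-1G or either of 2 tumors of other lines, and 2 without any 1 of 7 others. S100a9, the marker called lower, also lost its call without a-1D or a-R, where another member was called. With the library run as a covariate, 3 leukocyte, 7 macrophage and 0 T cell markers were called lower. Within run 1, 2 of 7 leukocyte and 0 of 11 macrophage markers were called lower than in MCA-972, and within run 2 the numbers were 1 of 8 and 1 of 11 against MCA-970 and 0 in both lists against MCA-948. With the leukocyte score as a covariate, none of the leukocyte, T cell, NK cell or macrophage markers was called lower by edgeR. The score is the mean of the leukocyte markers themselves, so for that list the loss was fixed in advance. The other lists mark cells of the same kind, so no conclusion on their differences is drawn from this setting.

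Of the 42 interferon-stimulated genes, all tested, 1 was called higher and 8 lower, with a median of -0.65. The number called lower was 8 with the leukocyte score as a covariate, 16 without W-R, 14 without a-1G and 5 without W-1D and W-2D. Trim30a, a member of the TRIM family induced by interferon, was at 1.08 to 6.06 CPM with a median of 2.5 in MCA-969, 77, 95.2, 54.4 and 136 CPM in MCA-943 and 0.391 to 2.26 CPM in MCA-948 (-1.75 against the mean, 1.20 against MCA-948), and it was called lower than in the 3 lines other than MCA-948. Ifi27l2a and the synthetase gene Oas1a followed the same order, with 104, 81.2, 45.9 and 125 and 34, 32.2, 13.6 and 52.3 CPM in MCA-943 and 0.124 to 1.37 and 0.248 to 1.83 CPM in MCA-969. Ifitm1, a restriction factor at membranes, was the member called higher, at 2.91 to 8.2 CPM with a median of 4.21 in MCA-969 and 7.22, 5.58, 5.67 and 5.26 CPM in MCA-943, and lower in the other 3 lines (1.52 against the mean, adjusted p = 1.69e-07, edgeR).

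MHC class I genes gave 1 member called higher (4.5%) and 2 lower (9.1%) of 22, with a median of -0.30. These counts are no more than a few genes beside the 9.8% and 5.36% over all genes tested. Nlrc5, the transactivator of MHC class I, was at 18.4 to 41.1 CPM with a median of 28.5 in MCA-969, 0.203 to 0.973 CPM in MCA-948 and 67.2, 74.9, 52.8 and 97.7 CPM in MCA-943 (1.54 against the mean). Tap2, a subunit of the peptide transporter, was at 2.57 to 9.34 CPM with a median of 6.64, below MCA-943 at 109, 104, 76.8 and 132 CPM and above MCA-948 at 0.507 to 2.66 CPM (-1.19). B2m, the light chain of MHC class I, was at 702 to 1157 CPM with a median of 816 and held the same intermediate place, with 2955 to 3847 CPM in MCA-943 and 286 to 368 CPM in MCA-948. MCA-969 thus differed from MCA-943 and MCA-948 in opposite directions in these genes.

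Ligands of NK cell receptors gave 2 higher and 2 lower calls (13.3% each) among 15 tested of 21, beside 9.8% and 5.36% over all genes tested. Icam1, a ligand of the integrin LFA-1, was at 20.1 to 56 CPM with a median of 32.1 in MCA-969 and 55.4, 36.2, 36.5 and 58.5 CPM in MCA-943, and lower in the other 3 lines (1.45 against the mean). The calls of Cadm1 (higher, 2.01) and of Cd48 (lower, -2.29) were lost with the library run as a covariate (1.64, adjusted p = 0.15, and -2.46, adjusted p = 0.0563). Cd48 is also a leukocyte gene, and it was at -0.25 (adjusted p = 0.547) with the leukocyte score as a covariate. Of the 22 inhibitory ligands and suppressive mediators 20 were tested, 6 were called higher and 1 lower, with a median of 0.66. Fgl1, a ligand of the inhibitory receptor LAG-3, was at 1.65 to 8.05 CPM with a median of 3.69 in MCA-969 against 0 to 0.929 CPM, without overlap and higher than in each line (4.04 ± 0.25, adjusted p = 7.24e-14, edgeR). Ptgs1 (cyclooxygenase-1) was at 126 to 338 CPM with a median of 185 against 19.1 to 175 CPM (2.04), and Gm43621 overlaps it on the opposite strand. Nt5e, the ectoenzyme CD73, was lower (-1.68), at 10.7 to 40.8 CPM with a median of 17.9, against 139.8 to 230.2 CPM in MCA-970 and 386, 259, 289 and 299 CPM in MCA-972, and 2 members were called lower without W-R, a-1G or W-1D. Cd274 (PD-L1) was at 0.99 to 6.33 CPM with a median of 4.25 and was not called (-0.31), and Vsir (VISTA), at 11.1 to 34 CPM with a median of 17.3, did not pass the threshold on size (0.68) and overlaps Cdh23 on the opposite strand.

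No chemokine was called higher by edgeR (4 at an unadjusted p under 0.05, 0 called by DESeq2 and 0 by limma-voom), although 1 was without W-R, a-1G, a-R or any 1 of 8 tumors of other lines, and 7 of 24 tested members (of 30) were called lower, with 3 left when the leukocyte score was a covariate and 4 when the library run was. Ccl3, a chemokine of macrophages, was at 0.0552 to 0.576 CPM with a median of 0.266 against 0.0611 to 5.08 CPM and was lower than in each line (-2.25), but lost its call with the library run (-2.55, adjusted p = 0.0517) and with the leukocyte score (-0.17, adjusted p = 0.738) as a covariate. Ccl21a, a lymphoid chemokine, had a median of 1.93 CPM and at most 3.72 CPM against 0.599 to 29.7 CPM (-1.95, also lower than in each line), and lost its call with the library run as a covariate (-1.71, adjusted p = 0.0531). Ccl9 was at 0.335 to 5.47 CPM with a median of 1.2 against 59.9, 39.4, 38.3 and 53.2 CPM in MCA-943 (-2.07).

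Markers of other cells were also counted. Fibroblast markers, all 9 tested, had 2 higher and 4 lower calls with a median of -0.92. Lum (lumican) was at 118 to 769 CPM with a median of 428 in MCA-969, below MCA-972 at 904, 713, 948 and 799 CPM and above MCA-943 at a mean of 32.1 CPM (2.14 against the mean). Of the endothelial markers 1 of 8 was called higher and none without a-1G, of the pericyte markers 2 of 6, of which 1 was left without W-R, a-1G, W-1D or 3 tumors of other lines, and of the erythroid markers 0 of 5 in either direction by edgeR (0 higher and 0 lower at an unadjusted p under 0.05). No pericyte marker was called higher by edgeR with the library run or the leukocyte score as a covariate, where Rgs5 (1.40) had log2 fold changes of 1.08 (adjusted p = 0.297) and 0.38 (adjusted p = 0.579), and no endothelial marker was with either. The adipocyte list had 1 of 6 members tested and 0 called. Of 8 keratinocyte markers 4 were tested, and the cornified envelope genes Ivl (3.21) and Lor were higher. They were at 0.144 to 0.836 and 0.217 to 1.34 CPM, whereas MCA-970 had 0.121 to 1.04 and 0.683 to 1.31 CPM. Lor had no count in MCA-943, against which the mean of MCA-969 was at least 9.64-fold higher. In the Schwann cell list 2 of 5 members were higher and 1 lower. The sex-linked list had 4 members higher and 1 lower of 5, through 2 of the 4 other lines. Over the 8 tested genes of the Y chromosome, the median log2 fold change was 5.42 against MCA-943 and 5.25 against MCA-972. Against MCA-948 and MCA-970 it was -0.25 and 0.45. Eif2s3y, on the Y chromosome, was at 35.1 to 80.1 CPM in MCA-969 and Xist at 0.0516 to 0.603 CPM, while MCA-943 and MCA-972 had 529.9 to 583 and 416 to 531 CPM of Xist.

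Of the 5 lines, MCA-969 had the lowest mean pairwise correlation of variance-stabilized counts between its tumors, at 0.986 against 0.990 to 0.994. In MCA-969, 670 genes (3.97%) had an SD of log2 CPM above 1, against 652 (3.87%) in the 8 tumors of MCA-948. The most variable protein-coding genes of at least 1 CPM included Col9a2, Ctnnd2, Ptx4, Fmod, Fam13a, Stmn2, Slitrk6, Itga11 and Csf2. Fmod, the collagen-binding proteoglycan fibromodulin, was at 0.279 to 27 CPM with a median of 11.4, with W-2D at 0.279 CPM. Itga11, a collagen receptor of fibroblasts, was at 0.186 to 19.3 CPM with a median of 5.99, again with W-2D lowest. Col11a1, a minor chain of cartilage fibrils, was at 1.08 CPM in W-2D and 1.08 to 54.6 CPM over the line. Csf2, the gene of the cytokine GM-CSF, was at 0.386 to 19.6 CPM with a median of 0.957. W-1D, which shares its label and its library run with W-2D, did not share these low collagen values, having 22400 CPM in the collagen list, the highest of the line. In keratin and mesothelial genes the same 2 tumors were the extremes, W-1D with 654 CPM and W-2D with 1534 CPM.

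**Figure D5:**
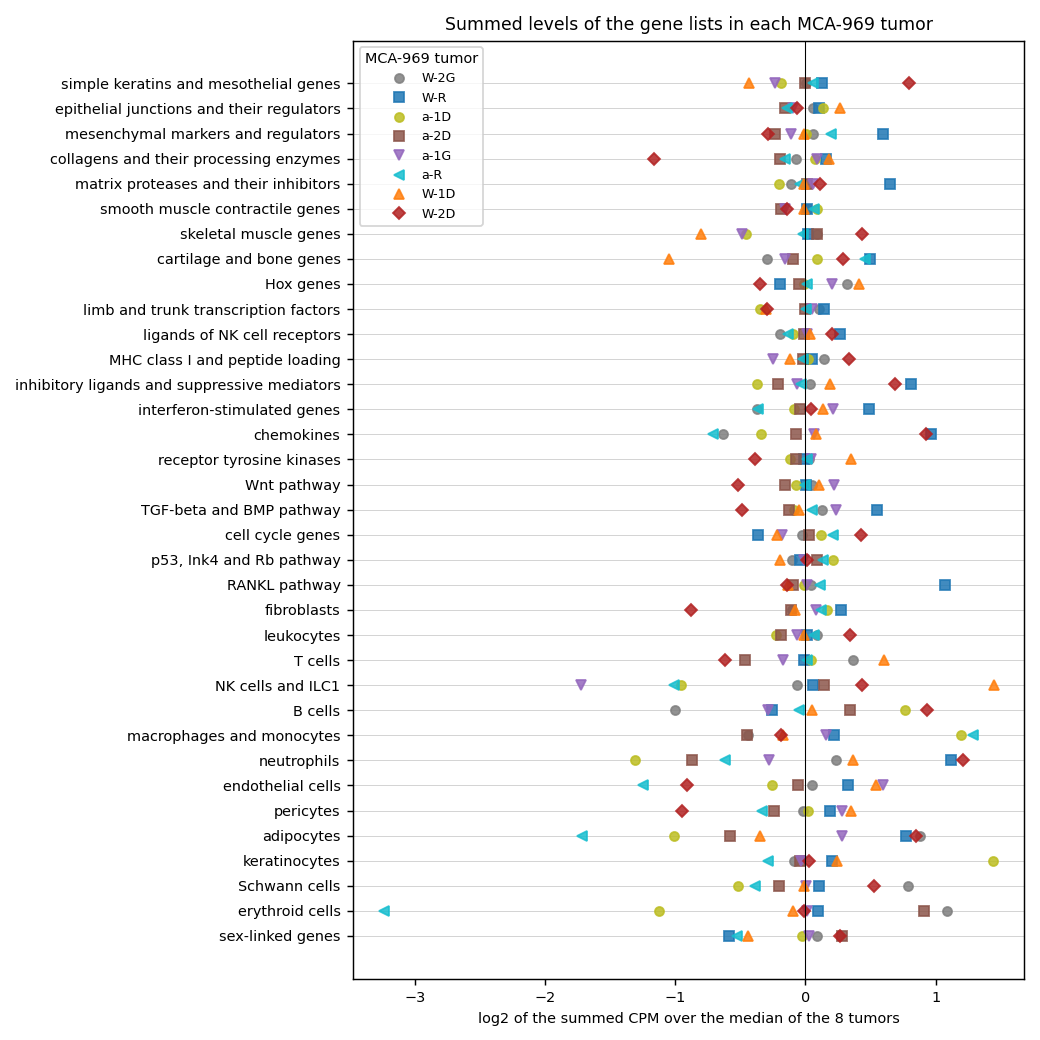
Summed CPM of each gene list in each of the 8 MCA-969 tumors, as log2 of its ratio to the median of the 8 on the horizontal axis, with the lists on the vertical axis and a symbol for each tumor. W-2D (red diamonds) lies far left in collagens and fibroblast markers and right in keratins, W-R (blue squares) right in the RANKL pathway and matrix proteases, and the lists of rare cells spread most.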

How the data were processed

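RNA of 30 single tumors of 5 lines was sequenced, 8 of them from MCA-969. Per the labels and the submitters' processing notes, the authors aligned reads to GRCm38 with STAR 2.5.3a, and Picard is also named. The column names state that duplicates were removed by unique molecular identifiers. The deposited table holds whole-number read counts per gene from featureCounts 1.5.2, not normalized, in 48440 genes, of which 48058 were given GENCODE symbols. The authors tested with DESeq2, used here as an alternative. The strand setting is not given in the sources used here.

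Genes with low counts were removed with filterByExpr, which left 16862. Counts were fitted with the edgeR 4.0.16 quasi-likelihood test (R 4.3.3, TMM scaling) over the 5 lines, which share 1 estimate of the spread (common biological coefficient of variation 0.221). The contrasts were MCA-969 against the mean of the 4 other line means and against each line. P-values were adjusted by Benjamini-Hochberg over all tested genes, with calls at an adjusted p under 0.05 and a log2 fold change of at least 1. A gene without a count in a line was given a lower bound against a floor of 3 counts per library. The leukocyte score is the mean log2 CPM of the leukocyte markers. On simulated data for the main contrast (16416 genes), 99 of 100 genes changed by a log2 fold of 2 and 97 of 100 changed by 1.5 were recovered, with 1 other call. The changed genes all had a mean above 1 CPM, and the simulated lines differed in nothing else and carried no run effect. The result therefore does not cover rarer genes or differences between runs. The closest pair of tumors differed by 13.2 times the sampling noise (chi-square per degree of freedom), so no library was counted as a repeat. Within MCA-969 the index set of the libraries coincides with the letter of the title.

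The gene lists, the contrasts and the genes named were chosen with earlier results of these data known. Named were the 12 higher and 12 lower protein-coding genes called against each line, without overlap in CPM, of at least 1 CPM and with the largest weakest difference, up to 4 called members of each list in each direction, members named in the study, and the 10 most variable genes of the line. Named after their values were seen were Areg, Arhgdib, Axin2, B2m, Cdh3, Cdkn1a, Cd274, Cdkn2a, Cldn4, Col11a1, Csf1r, Dlk1, Elf3, Epcam, Ereg, Esrp2, Ezr, Fendrr, Gata4, Grhl2, Hoxa2, Hoxb7, Hoxd4, Il11, Krt19, Lama1, Lhx9, Mki67, Sfrp4, Snai2, Sox5, Vegfc, Vim and Zeb1. A few genes that the rule names are not reported here. Alternatives were DESeq2 1.42.0, limma-voom (limma 3.58.1), other size factors, filters, thresholds, weights and covariates (library run, index set, title letter, leukocyte score, replicate block), the 5 line means and leaving out tumors. Promoters came from RefSeq for GRCm38.p6. Figures were drawn with matplotlib 3.10.9.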

Additional observations from a re-analysis of the deposited data

Results flagged for a closer look

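For each of 238 values (the levels of the named genes and the summed levels of the lists), the gap between the lowest or highest of the 8 MCA-969 tumors and its neighbour was divided by the range of the 8, on the log2 scale, and held against Dixon's critical value at the 95% level for 8 samples. Values past it numbered 35. Chance alone would give about 5% only if the values were independent and not selected on these tumors. They were neither, since genes named for their spread within the line were among them and the list sums contain named genes. No excess over chance can therefore be read from the number. The 35 values came from 3 tumors, with 27 in W-2D, 6 in W-R and 2 in a-1D.

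W-2D was far below the other 7 tumors in fibroblast and collagen genes. The ratio of gap to range was 0.682 for Col1a1, 0.663 for Col1a2, 0.752 for Col3a1, 0.670 for Col5a1, 0.690 for Col11a1, 0.609 for Col8a2, 0.723 for the summed collagen list and 0.670 for the summed fibroblast markers. Col3a1 was at 1484 CPM in W-2D and at 3104 to 3956 CPM in the other 7, and Col1a1 at 778 against 2200 to 3570 CPM. Other matrix genes with a low W-2D were Postn (0.746), Matn2 (0.759), Fmod (0.574), Adamts12 (0.585) and the collagen receptor gene Itga11 (0.692). Postn was at 179 CPM there and at 628 to 963 CPM in the rest of the line.

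Developmental and surface genes with a low W-2D were Pitx1 (0.683), Tbx2 (0.558), Hoxb9 (0.558), Nog (0.555), Bhlhe22 (0.645), Mme (0.552), Nrep (0.579), Pknox2 (0.808), Ctnnd2 (0.540) and Lor (0.552). Pknox2 was at 0.124 CPM in W-2D and 0.624 to 0.877 CPM in the others. W-2D was far above the other 7 in Krt18 (0.548), Tnnt1 (0.531), Acta1 (0.631) and the summed keratin and mesothelial list (0.544), with Krt18 at 557 CPM against 135 to 256 CPM.

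W-R was far above the other 7 in Tnfsf11 (0.600, with 75.8 CPM against 5.21 to 15.3 CPM), in the summed RANKL list (0.786) and in the summed protease list (0.632). It was far below them in Slc5a7 (0.610), Hoxa10 (0.567) and the cycling cell marker Mki67 (0.592, with 148 CPM against 217 to 283 CPM). In a-1D, Xist (0.544) and the summed keratinocyte markers (0.715) were high, with Xist at 0.603 CPM against at most 0.19 CPM.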

How the results depend on the processing

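Of the alternatives to the threshold, dropping the requirement on size gave 5425 higher and 4186 lower genes against the mean and 830 and 657 against each line, and a log2 fold change of at least 2 gave 658, 244, 152 and 22. Without a filter on low counts 2676 genes were called higher than the mean, and with a mean of at least 1 CPM, where fewer genes were tested, 887 were higher and 553 lower than the mean and 201 higher than each line. With the library run as a covariate, 227 genes were called higher than each line, of which 194 were among the 376 of the main fit. Lower than each line were 60, of which 38 were among the 87 of the main fit. The cause of this turnover was not tested. A model of the 5 line means called 0 genes higher and 0 lower than the mean (smallest adjusted p 0.111, limma), and could not be fitted for single lines. Of edgeR's 376 and 87 genes, 255 and 55 had an unadjusted p under 0.05 in that model. Those genes had been chosen for their differences in these same tumors, so these 2 numbers give no support. The other planned settings moved these counts by less than 1.5 times, among them DESeq2 with 1644 higher and 956 lower genes and limma-voom with 1557 and 1009. Leaving out each tumor in turn gave 1605 to 1740 higher and 795 to 963 lower genes against the mean, and 345 to 392 higher and 70 to 119 lower than each line, the fewest lower genes coming without W-2D.

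The codes in the titles did not pair the tumors: the deviations of 29 pairs with the same code in different lines had a median correlation of 0.02, from -0.48 to 0.41, with 10 above 0.1. With the code as a replicate block, 1611 genes were higher and 912 lower than the mean, and 301 and 93 than each line.

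Directions turned for single marker genes called lower. With the library run as a covariate the log2 fold change was 0.0506 for Nkg7 and 0.23 for Gzmb. With the leukocyte score, built from markers of the same cells, it was 0.25 for Cd52, 1.19 for Gzmb, 0.041 for Lyz2, 0.0738 for Itgam, 0.44 for Tyrobp, 0.0109 for C1qb, 0.23 for S100a9 and 0.15 for Csf1r, and -0.000693 for Vwf, which was called higher. Genes and lists named in the text lost their call in 162 of the combinations of gene and setting and gained one in 14. Depth limits the genes under about 1 CPM, such as Prss8 and Ntrk3, and MCA-943 shared no library run with MCA-969.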

Other observations

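Some genes of secreted factors and matrix outside the lists were also called against each line, and they were chosen after their values were seen. Dlk1, an imprinted gene of a noncanonical Notch ligand, was at 1125 to 1575 CPM with a median of 1359 in MCA-969 and 1.95 to 535 CPM in the other tumors (log2 fold change 4.12 ± 0.23, adjusted p = 1.24e-14, edgeR). The EGF receptor ligands Areg and Ereg were at 26.3 to 162 CPM with a median of 58 and at 203 to 1905 CPM with a median of 493, against 0.834 to 31.6 and 9.14 to 395 CPM elsewhere. Both were called higher than in each line, with log2 fold changes of 3.90 and 3.48. Il11, a cytokine of the interleukin-6 family, was at 23 to 424 CPM with a median of 73.7 against 3.52 to 50.7 CPM (3.69). Areg, Ereg and Il11 overlapped with tumors of other lines. Lama1, the laminin alpha chain of embryonic basement membranes, was at 11 to 30.8 CPM with a median of 20.8 against 0.0245 to 3.85 CPM (5.03). Vegfc, the growth factor of lymphatic vessels, was lower than in each line, at 9.32 to 21.7 CPM with a median of 15.1 against 29.9 to 91.3 CPM (-1.69).

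A pair of transcription factors of gonad and coelomic epithelium were also higher than in each line. Gata4 was at 0.504 to 5.26 CPM with a median of 1.92 in MCA-969 and 0 to 0.341 CPM in the others, with no count in MCA-943, against which it was at least 26.8-fold higher. Lhx9 was at 2.94 to 13.4 CPM with a median of 7.28 against 0.0339 to 0.491 CPM (5.49). The median log2 fold change by chromosome was largest in size among the autosomes on chromosome 15 (-0.22), chromosome 7 (0.21) and chromosome 10 (0.21).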
